A study of Mus musculus with 6 samples.

Results

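Intergenic long non-coding RNAs of mouse islets, the hormone-producing tissue of the pancreas, are described by diet. The members were the deposited transcripts whose interval overlapped no GENCODE M21 gene of any type and lay 5 kb or more from the nearest gene start or end. There were 223 of them among 3093 deposited transcripts (7.21%), from 220 loci. The C57BL/6 donors had eaten either normal chow (NCD) or what the labels call a high-fed diet (HFD) for 8 weeks, with 3 libraries a group. The labels used here give no further allele, agent, sex or age. Samples of db/db mice, named in the title, were not analysed here. The deposited table gave 1 FPKM per transcript and diet, a fragment count scaled to transcript length and to sequencing depth. There was no value per library, so every difference is given by its size, without a replicate check, a standard deviation or a test. In bulk RNA, fewer cells of a type and less RNA per cell cannot be told apart. The coding marker genes of islet cell types were not measured in this table of non-coding transcripts, so the tissue label was not checked against them.

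Long non-coding RNAs transcribed between genes are often called lincRNAs. They are known for low levels, for expression in few cell types, and for positions close to genes of developmental transcription factors. Active enhancers are also transcribed, and unannotated first exons or tails of known genes can appear as separate intergenic transcripts. In islets, intergenic transcripts have been described near genes of beta cell transcription factors.

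How far members lay from genes depended on the annotation. RefSeq, a second gene catalogue on the same genome build (GRCm38), placed 61 of the 223 members inside a gene: 13 in coding genes and 48 in non-coding genes or pseudogenes. A further 15 lay within 5 kb of a RefSeq gene, and 147 remained 5 kb or more from the genes of both catalogues. RefSeq promoter windows (250 bases before to 50 after a start listed for a gene) were touched by 11 members. In 7 members, an end of the interval lay within 50 bases of such a listed start, for 6 genes in all. For Zfp33b that start, at 104571672, lies inside the RefSeq gene, whose bounds begin at 104570575. The deposited table names no strand.

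Of these 6 genes, Gm19497 and Gm40572 also have such an end in their windows and are not shown. The windows of the other 4 genes are shown, and an end of a member lies in each. Without a strand in the table, that end may be the first or the last of the transcript. Each is written 5′ to 3′ on the gene's strand from RefSeq, build GRCm38, and capitals mark the bases inside the deposited interval.
Zfp33b, chr5:104571422-104571721, plus strand: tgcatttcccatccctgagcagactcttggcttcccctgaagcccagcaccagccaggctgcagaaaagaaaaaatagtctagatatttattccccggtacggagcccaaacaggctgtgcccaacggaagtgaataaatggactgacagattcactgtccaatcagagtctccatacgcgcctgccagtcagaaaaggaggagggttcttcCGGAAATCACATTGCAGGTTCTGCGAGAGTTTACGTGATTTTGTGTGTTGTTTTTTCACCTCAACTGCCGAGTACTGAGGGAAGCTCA
Gm38882, chr6:117879383-117879682, plus strand: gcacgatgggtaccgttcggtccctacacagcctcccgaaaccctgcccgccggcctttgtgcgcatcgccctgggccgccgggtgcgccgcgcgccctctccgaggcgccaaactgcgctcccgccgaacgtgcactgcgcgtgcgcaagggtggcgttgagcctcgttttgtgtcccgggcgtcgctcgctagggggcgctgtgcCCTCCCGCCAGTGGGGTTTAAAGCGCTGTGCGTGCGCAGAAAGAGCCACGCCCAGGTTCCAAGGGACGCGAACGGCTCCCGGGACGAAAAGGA
Gm41301, chr15:37135692-37135991, minus strand: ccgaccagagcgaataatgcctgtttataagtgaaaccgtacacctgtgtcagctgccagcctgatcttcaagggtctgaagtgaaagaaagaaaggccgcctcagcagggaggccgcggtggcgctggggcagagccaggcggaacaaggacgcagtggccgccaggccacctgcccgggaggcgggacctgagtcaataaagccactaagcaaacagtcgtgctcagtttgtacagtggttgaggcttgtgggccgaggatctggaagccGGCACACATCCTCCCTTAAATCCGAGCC
Gm19378, chr15:89767365-89767664, plus strand: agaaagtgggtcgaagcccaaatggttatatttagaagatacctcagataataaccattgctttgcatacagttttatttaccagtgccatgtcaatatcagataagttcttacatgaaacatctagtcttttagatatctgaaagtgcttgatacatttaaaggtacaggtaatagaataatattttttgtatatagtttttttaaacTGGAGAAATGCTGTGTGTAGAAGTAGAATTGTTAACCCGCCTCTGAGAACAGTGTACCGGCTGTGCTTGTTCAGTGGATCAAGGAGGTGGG

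These windows differed in base composition. The Gm38882 window had 69.7% G and C and 40 CpG dinucleotides, against medians of 52.7% and 7 over the 32851 RefSeq promoter windows. The Gm19378 window had 35.7% and 3 CpG, while those of Zfp33b and Gm41301 lay between (49.3% and 58.7%). The motif TATAAA, searched on both strands, was found in the Gm41301 window alone of these 4 and occurs in 13.6% of all windows. CCAAT was found in the Zfp33b window alone of these 4, and occurs in 37.4% of all windows. The motif GGGCGG was in none of the 4 and is in 35.7% of all windows. AATAAA was in the windows of Zfp33b, Gm41301 and Gm19378 and is in 19.6% of all windows. The windows of Gm19497 and Gm40572, not shown, each held CCAAT and none of the other motifs. A match says only that the letters are there.

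Of the 7 members at such starts, 5 were within 2-fold between the diets. The 13104-base interval over Zfp33b, a RefSeq zinc-finger protein gene, was at 4.29 FPKM (NCD) against 3.95 (HFD). The 5185-base interval with an end 43 bases before the start of Gm38882 was at 2.46 and 2.16. Both were nearly level between the diets. Gm41301 and Gm19378 each held 2 isoforms of 1 locus, and the isoforms differed in direction as deposited. Of the Gm41301 isoforms, the longer was at 0.112 FPKM (NCD) against 0.744 (HFD), and the shorter at 1.36 and 1.12. Of the Gm19378 isoforms, the longer was at 0.333 and 0.657 and the shorter at 0.709 and 0.241. Values of overlapping isoforms depend on how reads were divided between them and are uncertain for that reason.

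Across the 223 members, the median FPKM was 1.88 in NCD and 1.31 in HFD. The difference between diets was expressed as log2 of (HFD + 0.1) over (NCD + 0.1), which understates the change of low transcripts. A difference of at least 2-fold on that scale was counted as lower or higher. By this rule 80 members (35.9%) were lower in HFD, against 41.9% of the whole table, and 43 (19.3%) were higher, against 6.27% of the table. The share of lower members was thus near that of the table, while that of higher members was above it. No test of these differences was possible with 1 value per diet. The counts include the 17 members listed at 0 in 1 diet. Without those, 71 of 206 members were lower and 35 higher.

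The direction of the typical member depended on scaling. The median log2 ratio was -0.30 as deposited, against -0.82 for the table, and 0.52 once all ratios were centred on the table's median. After centring, 38 members were at least 2-fold lower and 76 at least 2-fold higher, against 15.0% and 15.9% of the table. The plot of both diets shows members on either side of equality at all levels.

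**Figure D1:**
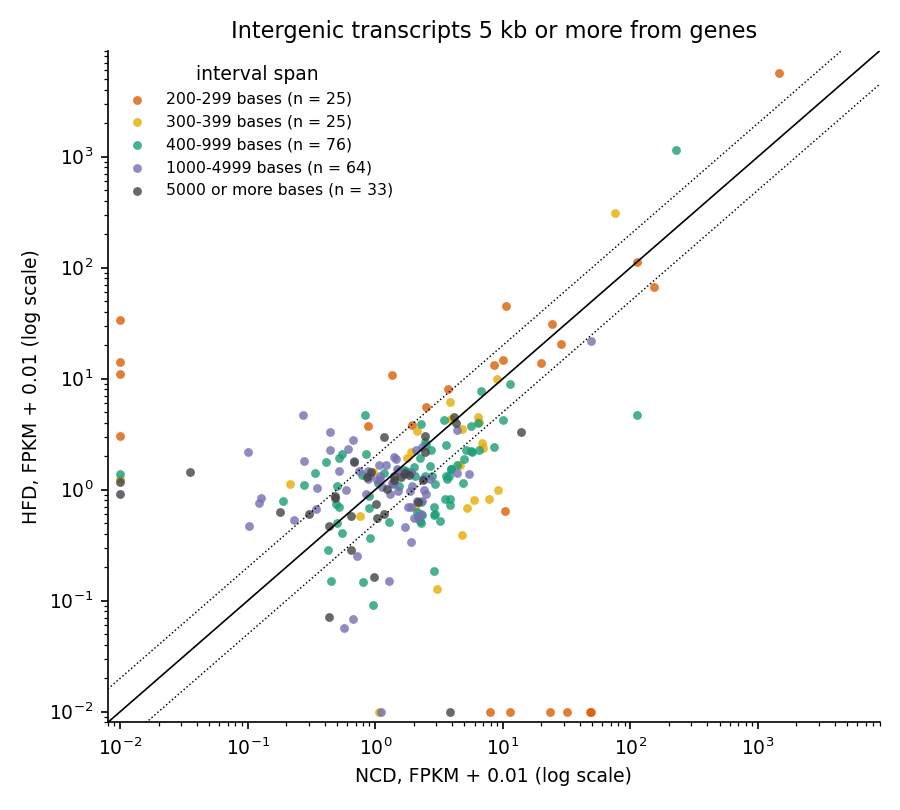
Each point is 1 of the 223 intergenic transcripts, with its FPKM in NCD on the x axis and in HFD on the y axis, both plus 0.01 on log scales and coloured by interval span. The solid line marks equal levels and the dotted lines 2-fold differences; 17 transcripts listed at 0 in 1 diet lie along the axes, and the highest point is a 258-base interval at 1450 and 5721 FPKM.

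Values on both sides of the distance limit were mixed. Just outside it, intervals 4964, 4987 and 4998 bases from a gene had log2 ratios of 0.95, 0.58 and -0.92. Just inside it, members 5011, 5036 and 5129 bases away were at 1.35, 0.14 and -1.51. The median member lay 13.4 kb from any gene and 33.3 kb from the nearest coding gene. The nearest gene of any type was protein-coding for 83 members, a processed pseudogene for 51, a lincRNA for 40, a snoRNA for 10 and of another type for 39.

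Levels differed by interval span, which had a median of 740 bases (lowest 209, highest 32617). Each class below includes its lower bound. The 25 members of 200 to 300 bases had a median of 10.4 FPKM (NCD) against 10.8 (HFD). Medians were 4.64 and 1.65 for the 25 members of 300 to 400 bases, 2.29 and 1.32 for the 76 of 400 to 1000 bases, 1.27 and 1.18 for the 64 of 1000 to 5000 bases, and 1.03 and 1.16 for the 33 of 5000 bases or more. NCD levels thus stepped down with each longer class. The shortest class held 68.9% of the members' summed FPKM in NCD and 77.4% in HFD. The fragment length that best fitted the table's low values was 295 bases in NCD and 287 in HFD, about the span of this class; its part in these values was not tested.

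Listing at 0 was most frequent in short intervals. In all, 9 members were listed at 0 in HFD and 8 in NCD, which is 7.62% of members against 4.17% of the table. Of these 17, 10 were under 300 bases, a class in which 40.0% of members were listed at 0 in 1 diet. A listing at 0 may be a failed estimate, and no ratio is given for these members. The highest values opposite a 0 in HFD were 48.8 FPKM for a 217-base interval 15.1 kb from Cnih3 (chromosome 1: 181337325 to 181337541) and 47.8 for a 220-base interval 8.53 kb from Pitpnc1 (chromosome 11: 107199148 to 107199367). A 211-base interval 11.0 kb from Rab40b followed at 31.8. Opposite a 0 in NCD, the highest were 33.7 FPKM for a 219-base interval between 2010109A12Rik and Ccng2 (chromosome 5: 93239769 to 93239987), 14.1 for a 249-base interval on chromosome 10 and 11.0 for a 269-base interval 206 kb from Kazn. All 6 of these members were under 300 bases.

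Ratios by span did not follow the order of levels. The median log2 ratio was 0.57 for 200 to 300 bases, -0.48 for 300 to 400, -0.68 for 400 to 1000, -0.03 for 1000 to 5000 and -0.14 for 5000 or more. Every class median lay above the table's -0.82. So did the medians of transcripts within 5 kb of a gene (-0.47), over coding exons (-0.41) and over non-coding exons (-0.44). The intronic median was -0.98. The share at least 2-fold lower was largest at 400 to 1000 bases (36 of 76, 47.4%) and smallest at 5000 or more (5 of 33, 15.2%). The quartiles of the longest class were -0.80 and 0.69.

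**Figure D2:**
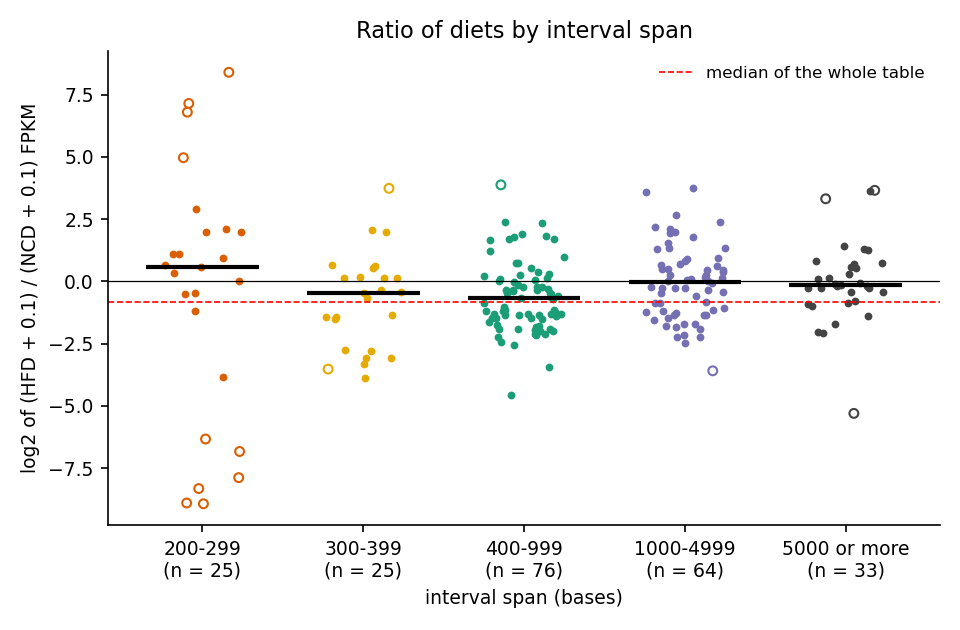
Log2 ratio of HFD to NCD (FPKM + 0.1) for each of the 223 transcripts, by interval span in bases; black bars are class medians, open circles are transcripts listed at 0 in 1 diet, whose height is set by the pseudocount, and the dashed line is the table's median of -0.82. The class medians lie between -0.68 and 0.57, and most open circles fall in the shortest class.

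Long members were set beside transcripts of the same span elsewhere. Of 97 members of at least 1000 bases, 19 (19.6%) were at least 2-fold higher in HFD and 25 (25.8%) at least 2-fold lower, with a median log2 ratio of -0.12. Of 660 intronic transcripts of that span, 8 (1.21%) were higher and 239 (36.2%) lower (median -0.81). Of 107 transcripts within 5 kb of a gene, 8 (7.48%) were higher and 27 (25.2%) lower (median -0.34). At 400 to 1000 bases the shares of higher transcripts were 14.5% of members, 3.45% near genes and 2.55% in introns. Under 300 bases they were 40.0%, 41.2% and 21.4%, and these counts include 4, 6 and 15 transcripts listed at 0 in NCD. Nothing is read from that class for this reason. These values are side by side and were not tested.

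**Figure D3:**
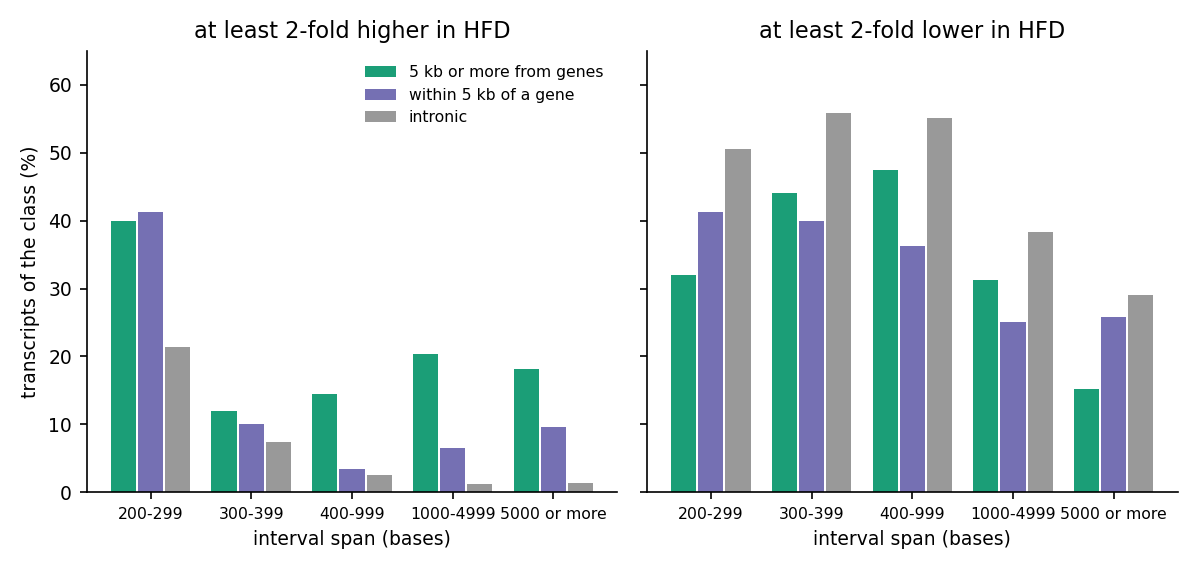
Percent of transcripts at least 2-fold higher (left) or lower (right) in HFD, by interval span in bases, for transcripts 5 kb or more from genes, within 5 kb of a gene, and intronic. At 1000 to 5000 bases, 20.3% of the far transcripts were higher against 6.58% near genes and 1.18% in introns.

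A few members carried most of the summed FPKM. The 223 members held 18.9% of the table's summed FPKM in NCD and 44.8% in HFD, and 5 of the table's 10 highest transcripts were members. A single 258-base interval at chromosome 18: 68692061 to 68692318, inside the RefSeq lncRNA gene Gm30821, was at 1450 FPKM (NCD) against 5721 (HFD) (log2 ratio 1.98). A 488-base interval at chromosome 3: 5860339 to 5860826 was at 229 and 1153 (2.33), and a 355-base interval at chromosome 8: 15519774 to 15520128 was at 75.2 and 314 (2.06). The first and second of these held the same rank in both columns, and quantile normalization of the columns put their ratios at 0.00. As deposited, these 3 were all higher in HFD and held 60.1% of the members' sum in NCD and 90.7% in HFD. The members' sum was 2919 in NCD and 7929 in HFD, 1469 and 2208 without the highest, and 1164 and 741 without the 3 highest. Without these 3 the HFD sum was the lower one, a check chosen after the data were seen. The 258-base interval is shorter than the fitted fragment lengths of 295 bases (NCD) and 287 (HFD). Its FPKM, and sums that include it, therefore give no share of fragments or of RNA.

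The other members among the 10 highest went both ways. A 418-base interval at chromosome 13: 40626134 to 40626551, 88.8 kb from Tfap2a, was at 112 FPKM (NCD) against 4.66 (HFD). Its log2 ratio of -4.56 was the lowest of members above 0 in both diets. It stood for an estimated 913 fragments in NCD and 48.9 in HFD, and the counting interval on the fragment ratio was -4.94 to -4.08. A 209-base interval on chromosome 12, 1473 kb from the nearest coding gene Sel1l, was at 154 and 66.9 (-1.20). A 244-base interval on chromosome 11, 63.7 kb from 4930505A04Rik, was at 10.6 and 45.5 (2.09). A 271-base interval on chromosome 6 was at 28.7 and 20.5, within 2-fold. Between the major urinary protein genes Mup18 and Mup19, which encode pheromone carriers, intervals of 234 and 276 bases were nearly level at 112 and 113 FPKM and at 24.3 and 30.9. These 2 lie in a gene family of near-identical copies, and their reads may be shared with other copies. On the Y chromosome a 1752-base interval 36.5 kb from Gm21861 was at 48.9 and 21.9 (-1.15). Of the 10 highest, 7 were under 400 bases, 6 were higher in HFD, 4 of them at least 2-fold, and 3 at least 2-fold lower.

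Among 168 members of at least 400 bases and above 0 in both diets, the 10 highest ratios ran from 2.00 to 3.74. Of these 10, 8 were at least 1000 bases long and 9 were below 1 FPKM in NCD. The highest ratio belonged to a 3244-base interval at chromosome 2: 169609973 to 169613216, 19.8 kb from Tshz2, a zinc-finger homeobox transcription factor gene, with 0.260 FPKM (NCD) against 4.71 (HFD) (3.74). An 11175-base interval inside the RefSeq lncRNA gene Gm39952 was at 0.0251 and 1.44 (3.62). A 484-base interval farther along the same stretch, toward the exchanger gene Slc24a3, was at 0.401 and 1.78 (1.91). Both members of this pair were thus at least 2-fold higher. A 4853-base interval on chromosome 18, 14.8 kb from Haus1, was at 0.0899 and 2.19 (3.59).

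Other members of this group lay near genes of varied function. A 2376-base interval 7.86 kb from Anapc15-ps was at 0.428 and 3.28 FPKM (2.68). Next to Ell2, a transcription elongation factor gene, a 1023-base interval was at 0.264 and 1.80 (2.38), and its neighbour of 578 bases at 0.487 and 1.08 (1.00). On the 3′ side of the growth factor gene Fgf9, 144 kb away, a 423-base interval was at 0.824 and 4.68 (2.37). That difference stood for 6.96 and 51.0 estimated fragments, with a counting interval of 1.44 to 3.97. A 3727-base interval in RefSeq Gm42360, 130 kb from the junction protein gene Ajap1, was at 0.430 and 2.28 (2.17). Near Ptprn2, which encodes a protein of the insulin granule membrane, a 2548-base interval 68.8 kb away was at 0.118 and 0.833 (2.10). The longer Gm41301 isoform and the 488-base chromosome 3 interval complete the 10. Counting intervals cover counting error only, and assume that each column was counted from 1 pool of fragments and that the transcript is unspliced.

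The 10 lowest ratios ran from -4.56 to -2.15, and 9 of these members were below 1 FPKM in HFD. The lowest was the chromosome 13 interval named above. A 441-base interval 5.85 kb from the microRNA gene Mir365-2 was at 0.950 and 0.0811 (-2.54), or 9.15 fragments against 0.999. Its counting interval, -8.90 to -0.60, was wide. A 407-base interval 41.2 kb from Chd7, a chromatin remodeller gene, was at 3.21 and 0.516 (-2.42).

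Between the amylase genes Amy2a1 and Amy1, which encode starch-digesting enzymes of acinar and salivary cells, 2 isoforms of 1 locus were low in HFD. They were at 1.26 and 0.657 FPKM under NCD and 0.141 and 0.0589 under HFD (-2.49 and -2.25). They were the whole of the acinar and duct list among the members, and the amylase mRNAs themselves were not measured here. The share of acinar RNA in each pool was therefore not measured, and its part in these values was not tested. The amylase genes are near-identical copies, and reads of the region may be shared. In the remaining members of this group, the ratios were -2.25 inside RefSeq Samd5, -2.23 for a 3668-base interval 21 kb from the cell cycle kinase gene Wee1, -2.16 for a 4012-base interval 8.79 kb from the splicing factor gene Sfpq, and -2.15 inside RefSeq Gm14413.

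Depth limited what single members can show. In the 76 members of 400 to 1000 bases, the median was an estimated 37.2 fragments in NCD and 26.6 in HFD. The counting interval, on fragments per total fragments rather than FPKM, lay wholly below 0 in 39 of them, wholly above 0 in 13 and included 0 in 24. It excluded 0 for 34 of the 36 that were at least 2-fold lower and for all 11 that were at least 2-fold higher. Of these 11, 1 was listed at 0 in NCD, which may be a failed estimate. Differences of at least 2-fold were larger than counting error in most of the members that showed them, and variation between mice is unknown. The totals behind these estimates were 65500000 fragments in NCD and 79500000 in HFD, inferred from the steps between low values.

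Members near genes of islet transcription factors were found through a fixed list of such genes, with a neighbour counted when it was the nearest coding gene on either side within 500 kb. The list took in 11 members, at Mnx1, Nkx6-1, Rfx6 and Onecut1. At least 2-fold lower in HFD were 4, 1 of them listed at 0 there, and 1 was at least 2-fold higher (median log2 ratio -0.26, against -0.30 for all members). The list as a whole was thus close to the members in general.

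Upstream of Mnx1, a homeobox gene needed for beta cell development, 5 members lay along 57.8 kb toward Ube3c (chromosome 5: 29489252 to 29547009). The last of them was 67.7 kb from Mnx1 and only 22.2 kb from Ube3c. Going away from Mnx1, the 5 members were at 1.66, 3.56, 2.26, 2.27 and 1.27 FPKM in NCD. In HFD the same 5 were at 1.38, 1.31, 3.86, 0.761 and 0.497. The middle interval was higher in HFD (log2 ratio 0.75, counting interval 0.08 to 1.67). Its neighbours on either side were lower, at -1.38 (-2.26 to -0.57) and -1.46 (-2.52 to -0.64). As deposited, members of a single stretch thus differed in direction. The counting interval of the middle one is on fragments per total fragments, not FPKM, and its lower bound of 0.08 is close to 0.

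On the 3′ side of Nkx6-1, a homeobox gene that maintains beta cell identity, 4 members lay within 17.9 kb, 65.3 to 80.2 kb from the gene. The highest, of 2969 bases, was at 4.39 FPKM (NCD) against 3.45 (HFD), and the others were at or below 0.687 in both. A 4480-base interval overlapping it was at 0.0924 and 0.465 (log2 ratio 1.55), while the remaining pair was within 2-fold at 0.36 and -0.14. As deposited, the stretch was thus at about the same level in both diets apart from that 1 low transcript. After centring on the table's median, the log2 ratios of the 4, in the order given, were 0.48, 2.37, 1.18 and 0.68.

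A 740-base interval 38.2 kb on the 3′ side of Rfx6, a regulator of endocrine cell development, was at 0.771 FPKM (NCD) against 1.35 (HFD) (0.74, counting interval 0.07 to 1.59). A 392-base interval 21.6 kb from Onecut1, a transcription factor gene of pancreas and liver development, was at 1.05 in NCD and listed at 0 in HFD. It lies in the RefSeq lncRNA gene Gm33562. The only member at a gene of the diabetes-linked list was a 6441-base interval 15.3 kb upstream of Wfs1, the gene of an endoplasmic reticulum protein mutated in Wolfram syndrome. It was at 2.34 FPKM (NCD) against 1.20 (HFD) (-0.91).

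The developmental transcription factor families list held 10 members, 4 at least 2-fold lower and 2 at least 2-fold higher (median -0.44). Besides the Tshz2 interval, those described here lay near Sox6, Sox5, Foxo1, Nr4a3 and Klf10. A 714-base interval in RefSeq Gm34282, 306 kb from Sox6, was at 0.324 FPKM (NCD) against 1.4 (HFD) (1.83, counting interval 1.09 to 3.35). Its 3355-base neighbour in the same RefSeq gene was at 0.861 and 1.24 (0.48). Close to Klf10, a growth factor response gene, a 455-base interval was at 2.91 and 1.12 (-1.31). The members near Sox5 (-0.27), Nr4a3 (-0.21) and Foxo1 (-0.61) were within 2-fold.

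As deposited, all 7 members of the ion channel list were lower in HFD, as were 80.0% of the table by any amount, with 3 of them at least 2-fold (42.9%), which is near the table's share of 41.9%. After centring on the table's median, the 4 at Trpm3 lay above 0. At Trpm3, a calcium-permeable channel gene expressed in beta cells, 4 members filled most of a 78.6 kb stretch upstream of the gene (chromosome 19: 22040637 to 22119255). They spanned 32617, 8087, 7122 and 20203 bases, and the first is the longest interval of all members. They were at 1.70, 1.58, 1.39 and 1.82 FPKM under NCD and 1.4, 1.29, 1.32 and 1.35 under HFD. Their log2 ratios were -0.26, -0.28, -0.07 and -0.41, all within 2-fold. The 2 transcripts of the table that lay inside Trpm3 had a median of -0.56.

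The other ion channel neighbours differed more. Upstream of Cacna1a, a calcium channel gene, a 376-base interval that RefSeq places inside that gene was at 7.71 FPKM (NCD) against 0.818 (HFD) (-3.09). A 340-base interval farther out was at 4.64 and 1.65 (-1.44). A 17017-base interval between Grik3 and Csf3r was at 0.424 and 0.0612 (-1.70). In the olfactory, vomeronasal and defensin families list, 4 members had ratios of -2.13, -2.02, -0.67 and 2.00. The 5981-base member between Olfr1322 and Olfr1323 on the X chromosome was the most abundant of them, at 13.8 and 3.33 FPKM. The adhesion and axon guidance list held 1 member, between Nlgn1 and Spata16, at 0.219 and 0.519 (0.96). Among the longest intervals outside these lists, one of 21856 bases 7.48 kb upstream of Fam19a1 was at 0.917 and 1.44 FPKM (0.60). No member lay at a gene of the islet hormone, stress and metabolism, or immune, stromal and endothelial lists.

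Most members were single. Joining members less than 50 kb apart gave 187 groups, of which 166 were single, 12 were pairs and 9 held 3 or more (33 members). Members in the 9 clusters had a median log2 ratio of -1.05, pairs of -0.90 and single members of -0.09. At least 2-fold lower were 17 of 33 in the clusters (51.5%), 12 of 24 in pairs (50%) and 51 of 166 single members (30.7%). Over the whole table the median was -0.82 and the share 41.9%, so clusters and pairs lay nearer the table than single members did. Transcripts of a cluster may be pieces of 1 RNA and are not independent of each other.

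In 6 of the 9 clusters every member was lower in HFD, and in 5 of these each NCD value lay above each HFD value. Since 80.0% of the table was lower in HFD by any amount, nothing is read from these counts about the clusters. These directions are as deposited: after centring, the 4 Trpm3 members and 1 of the 3 between Glycam1 and Mucl1 lay above 0. In the gene desert between Pcdh20 and Pcdh9, protocadherin adhesion genes, 4 members along 37.3 kb were at 2.65, 2.12, 2.48 and 3.86 in NCD and 1.23, 0.778, 0.902 and 0.813 in HFD. A pair farther along lay at 4.76 and 2.27 in NCD and 0.384 and 0.488 in HFD. All 6 of these transcripts, each 1182 kb or more from a coding gene, were at least 2-fold lower as deposited. After centring, 3 of the first 4 were within 2-fold, at -0.23, -0.52 and -0.55.

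Between Rad51ap2 and Fam49a, 3 members were at 1.71, 3.64 and 2.30 FPKM under NCD and 0.452, 1.23 and 0.576 under HFD (-1.71, -1.49 and -1.83). Between Glycam1 and Mucl1, on chromosome 15, 3 members were at 2.14, 0.877 and 2.00 in NCD and 0.765, 0.667 and 0.544 in HFD. The 418-base one of these lies inside the interval of the 21997-base one, and with 7.13 and 7 estimated fragments its counting interval was -2.02 to 1.46. Between Zfp706 and Grhl2, a 20519-base interval was at 0.635 and 0.275 beside the Gm41301 isoforms.

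**Figure D4:**
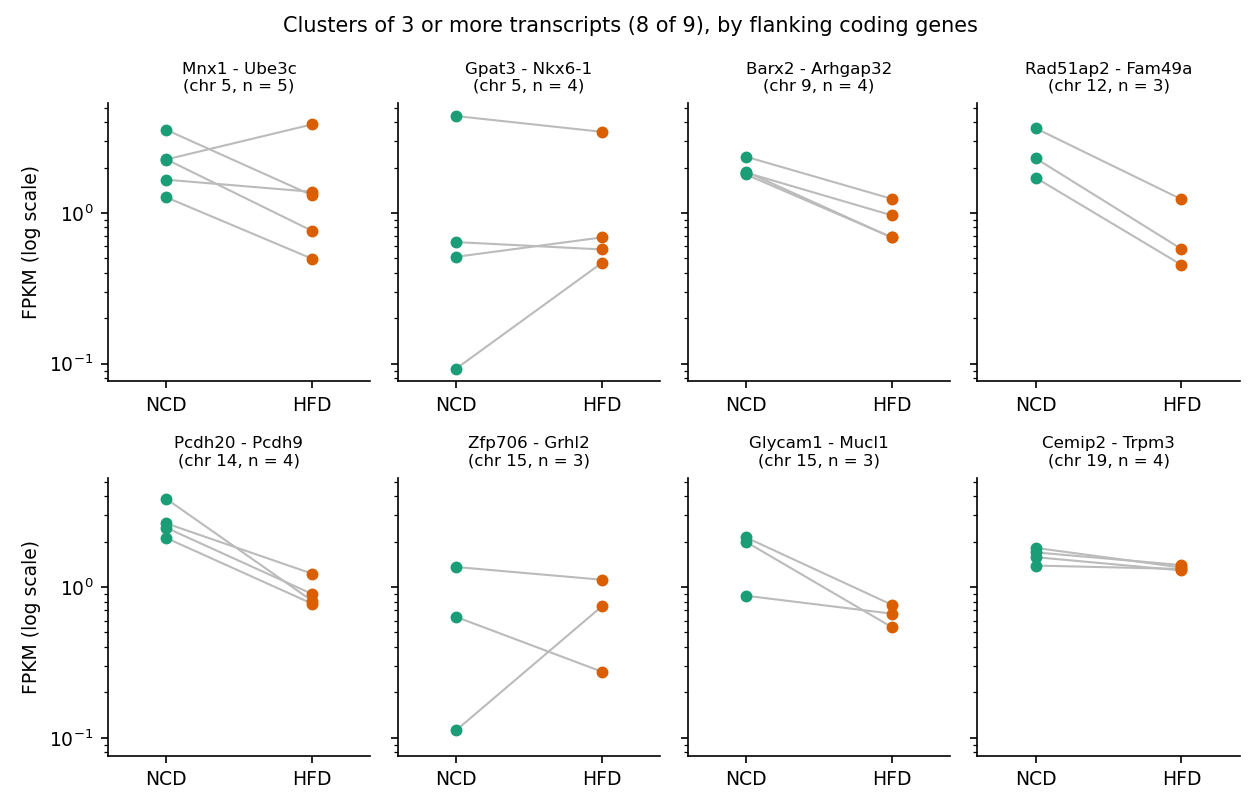
FPKM on a log scale in NCD (green) and HFD (orange) for each transcript of 8 of the 9 clusters of 3 or more, with 1 panel per cluster titled by its flanking coding genes and lines joining the values of a transcript. All lines slope down in 5 panels, and those of the Trpm3 cluster are nearly flat, between 1.29 and 1.82 FPKM.

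Upstream of Arhgap32, a gene of a GTPase-activating protein, 4 members along 43.3 kb were at 2.36, 1.88, 1.85 and 1.80 FPKM under NCD and 1.24, 0.687, 0.964 and 0.689 under HFD (-0.87, -1.33, -0.88 and -1.27). GENCODE M21 starts the gene 13.5 kb beyond the nearest of them, whereas the RefSeq gene covers all 4. They belong to the 13 members inside RefSeq coding genes, a grouping made after the data were seen. Of these 13, 11 were lower in HFD and 6 at least 2-fold lower (46.2%), with a median log2 ratio of -0.88, close to the intronic median of -0.98. Both counts were near the table's shares of 80.0% lower by any amount and 41.9% at least 2-fold lower.

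Others in RefSeq coding genes lay inside Dpp10, a potassium channel auxiliary gene, at 1.99 and 1.60 FPKM (-0.30) and at 2.22 and 0.511 (-1.93). In Stxbp5l, a gene of vesicle release, a 1344-base member was at 2.32 and 0.778 (-1.46). The 48 members in RefSeq non-coding genes were evenly split, 24 lower and 24 higher, with a median of -0.04. The 147 members 5 kb or more from RefSeq genes had a median of -0.41, with 57 at least 2-fold lower (38.8%) and 26 higher (17.7%). The 15 within 5 kb of a RefSeq gene had a median of 0.69, and 11 of them were higher. The share of higher members thus exceeded the table's 6.27% also among those far from genes in both catalogues.

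Distance to the nearest coding gene went with nearly equal medians and unequal shares of higher members. The median log2 ratio was -0.33 for the 84 members 5 to 20 kb away, -0.34 for the 86 at 20 to 100 kb and -0.27 for the 53 at 100 kb or more. At least 2-fold higher were 14.3%, 15.1% and 34.0% of these classes, and at least 2-fold lower 38.1%, 32.6% and 37.7%. The higher members include 1, 3 and 4 listed at 0 in NCD.

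By the side of the nearest coding gene, the 116 members on the 5′ side had a median of -0.49, with 50 at least 2-fold lower (43.1%) and 15 higher (12.9%). The 107 on the 3′ side had a median of 0.04, with 30 lower (28.0%) and 28 higher (26.2%). Over the table these shares were 41.9% and 6.27%, the first close to that of the 5′ side. Of the 9 clusters, 7 lay on the 5′ side. Among single members alone the medians were -0.27 (78 members) and 0.07 (88 members), a smaller gap. The strand of a member is unknown, so a 3′ position does not say that the member continues the gene's RNA.

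**Figure D5:**
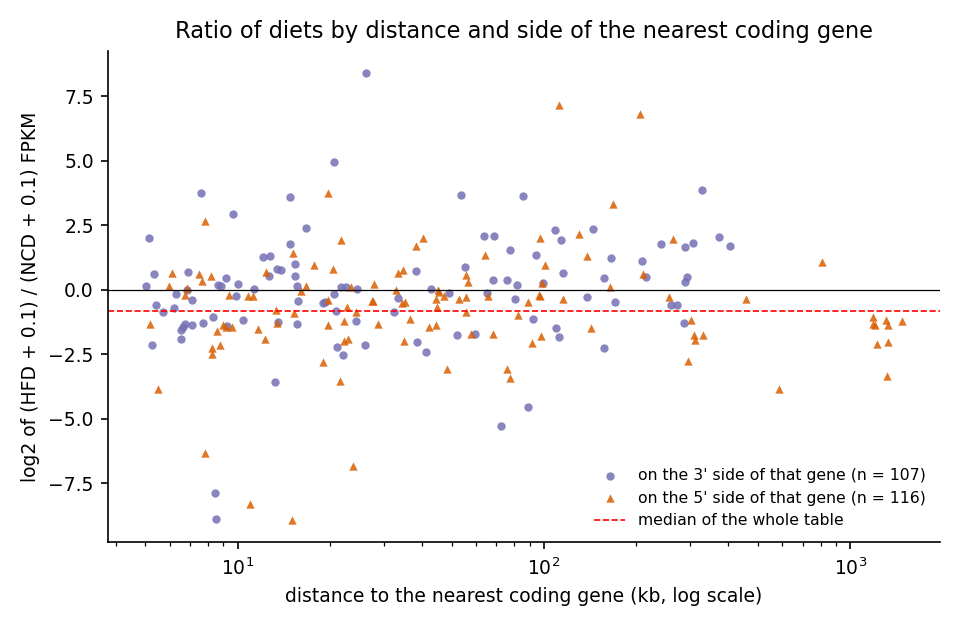
Log2 ratio of HFD to NCD (FPKM + 0.1) against the distance to the nearest coding gene in kb on a log scale, for the 223 transcripts, with circles for the 3′ side and triangles for the 5′ side of that gene. Both kinds spread around medians of 0.04 and -0.49, and no slope with distance is seen in class medians of -0.33, -0.34 and -0.27.

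For 40 members the nearest coding gene itself held transcripts of the table. Across these 40, at 31 genes, the member's log2 ratio and the median ratio inside the gene had a Pearson r of -0.11 and a Spearman correlation of -0.07. In the 32 members of at least 400 bases the values were 0.04 and 0.07. These points share both columns, and several share a gene. The median was -0.27 for the members and -1.18 for the transcripts inside the genes.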

How the data were processed

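Islet RNA went into Illumina TruSeq libraries, per the labels' protocols. The authors deposited 1 FPKM column per diet for 3093 transcripts from 3042 loci, per the file headers. The sources used here do not name the aligner, assembler or quantifier, nor how a column combines its 3 libraries. Builds GRCm38 and mm10 are in the submitters' processing notes. No column per library was used, so depth per library and the planned limma fits could not be had.

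Intervals were placed against GENCODE M21 and RefSeq genes (GRCm38) with Python 3.11.15, pandas 2.3.3, numpy 2.4.6 and scipy 1.17.1. Log2 ratios used a pseudocount of 0.1 FPKM and no filter. Neighbouring coding genes were sorted into 10 lists, of which 7 held members (36 in all). Named members were the 10 highest mean levels, the 10 highest and 10 lowest ratios (at least 400 bases, above 0 in both diets), the 5 longest, the 5 farthest from genes, those in clusters of 3 or more, those at listed genes, and the 3 highest opposite a 0 each way. Members at RefSeq genes, microRNAs and the sex chromosomes, and pairs, were named after their values were seen. The members of 1 cluster are counted and not reported singly here. Members and lists were chosen with earlier results of these data known. Sequence features of the intervals were planned and not computed, since no genome sequence was used here.

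Fragment numbers were inferred by fitting a total and a fragment length that make low FPKM values (under 8 fragments, spans 400 to 700 bases) whole. With a tolerance of 0.15, this held for 44 of 48 low values under NCD (91.7%) and 105 of 105 under HFD (100.0%). Values not used in a fit would give 30% by chance, but the fit was chosen on these same values. In transcripts kept out of the fit the shares were 81.5% and 100.0%. A single fragment at 400 bases equalled 0.144 FPKM (NCD) or 0.11 FPKM (HFD). Counting intervals are exact 95% Clopper-Pearson intervals for members of 400 to 1000 bases, without the pseudocount. Their scale is the ratio of fragments per total fragments, not of FPKM. The fitted fragment lengths, 295 bases in NCD and 287 in HFD, entered the fragment numbers. The ratio was then scaled by the totals only and not by these lengths. The intervals therefore lie slightly above those of the FPKM ratio. They assume 1 pool per column and unspliced transcripts, and cover counting error only. Placement and depth steps were tested on simulated data.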

Additional observations from a re-analysis of the deposited data

How the results depend on the processing

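No paired analysis was possible because each diet has a single deposited column, and leaving out libraries was not run either. The 80 members at least 2-fold lower numbered 49 with a pseudocount of 1, 38 when ratios were centred on the table's median and 38 when the columns were quantile normalized. Among the 72 members 20 kb or more from genes they numbered 26. The 43 at least 2-fold higher became 23, 76, 76 and 17 under the same settings, 27 with a mean of at least 1 FPKM, and 26 without members in or within 5 kb of RefSeq genes, an alternative chosen after seeing the data. Stricter rules leave fewer members by construction. Under centring and quantile normalization in turn, positive medians were found for all members (0.52 and 0.49), for spans of 300 to 400 (0.34 and 0.40), 400 to 1000 (0.14 and 0.05), 1000 to 5000 (0.79 and 0.78) and 5000 or more (0.68 and 0.66), and for coding genes at 5 to 20 kb (0.49 and 0.48), 20 to 100 kb (0.48 and 0.50) and 100 kb or more (0.55 and 0.45). Among members 20 kb or more from any gene, the medians of spans 200 to 300, 1000 to 5000 and 5000 or more were 2.03, 0.37 and -0.86. With 1 value per cluster those of 1000 to 5000 and 5000 or more were 0.08 and 0.12. The cause was not tested. Of the 87 named members, none past the size rule turned to the opposite direction under a pseudocount of 0.01 or 1, centring or quantile normalization. Quantile normalization took the 258-base chromosome 18 and 488-base chromosome 3 intervals from 1.98 and 2.33 to 0.00, since each holds the same rank in both columns. With a pseudocount of 1, 21 no longer passed the size rule. After centring, 18 no longer passed it and 7 others newly did. Quantile normalization gave 19 and 7 in turn.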

Other observations

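The sex chromosomes held 7 members. On Y, intervals of 636, 1752 and 1238 bases were at 0.537, 48.9 and 0.603 FPKM under NCD and 0.395, 21.9 and 2.31 under HFD. On X, intervals of 1907, 5981, 1224 and 275 bases were at 0.507, 13.8, 2.28 and 11.3 in NCD and 1.45, 3.33, 0.600 and 0 in HFD.

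No member overlapped a microRNA hairpin, and 6 had one within 50 kb. The nearest were Mir365-2 (5.85 kb) and Mir26b, whose neighbour of 460 bases, 7.93 kb away, was at 2.42 FPKM (NCD) against 2.68 (HFD).

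Of the 12 pairs of members, 7 had both lower in HFD and 3 had both higher, in a table of which 80.0% was lower by any amount. On either side of Fos, an immediate-early transcription factor gene, intervals of 378 and 2198 bases were at 5.25 and 5.4 FPKM under NCD and 0.667 and 1.37 under HFD (-2.80 and -1.90). Next to Chrm3, a muscarinic receptor gene that is active in beta cells, 624- and 471-base intervals were at 4.34 and 5.15 in NCD and 1.67 and 2.25 in HFD (-1.33 and -1.16).

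The members farthest from any gene, 163, 154, 147, 143 and 130 kb away, had no common direction. The farthest, a 276-base interval on chromosome 15, was at 10.4 FPKM (NCD) against 0.638 (HFD) (-3.83). The next, of 374 bases on chromosome 8, was at 9.04 and 9.87. The others were at 1.49 and 0.968, at 0 and 1.37, and at 0.430 and 2.28.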
